A study of Coturnix japonica with 4 samples.

Results

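The genes described here are 10 genes of skeletal muscle, measured in embryonic skin of Japanese quail (Coturnix japonica). They were chosen by name as regulators and structural proteins of the skeletal muscle lineage, with earlier results of these data known, so shares set beside those of all genes describe them and are no independent support. All 10 were found among the 12383 genes analysed. Skin of untreated embryos was dissected at embryonic day 7 from the black and from the yellow stripes. Per the labels, each stripe has 2 libraries, each made from tissue of 4 embryos; strain and sex are not given in the labels. The deposited table holds 1 RPKM value per stripe (reads scaled to transcript length and to the number of mapped reads), so values per library were not used and no SD or standard error can be given. The p-values and q-values (p-values adjusted over all genes for the false discovery rate) are the authors' own, and nothing in the labels says whether the libraries of a stripe came from separate dissections, so they may measure technical spread alone.

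The skin is called black-labelled and yellow-labelled after its sample names because several pigment genes, though not all, run against the names. TYRP1, a melanosomal enzyme of black pigment, had 2.71 RPKM in black-labelled skin and 68.2 RPKM in yellow-labelled skin. KIT, 1 of the melanocyte markers, went the other way, with 30.8 RPKM in black-labelled skin and 23.6 RPKM in yellow-labelled skin. A collagen gene and an epithelial gene, neither of them particular to skin, had high values. COL1A2, a fibrillar collagen chain of the dermis, had 539 RPKM in black-labelled skin and 529 RPKM in yellow-labelled skin. EPCAM, an adhesion molecule of epithelia, had 111 and 126 RPKM in the same order. The median log2 ratio of black-labelled over yellow-labelled was -0.00 over the 10061 genes whose values averaged 1 RPKM or more, which are called measured, and its quartiles were -0.08 and 0.08.

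Skeletal muscle of the trunk and limbs arises from the dermomyotome of the somite, an epithelium that also gives rise to dermis of the back. Progenitors there express PAX3 and PAX7, the basic helix-loop-helix factors MYF5 and MYOD1 commit them to muscle, and MYOG drives their differentiation into fibres. In fibres the sarcomere is built from thin filaments of actin, tropomyosin, troponin and nebulin and thick filaments of myosin, with desmin joining neighbouring Z discs. Skin muscles and body wall muscles lie directly under the skin. In bulk tissue, fewer cells of a type and less RNA per cell cannot be told apart.

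Among the 10 genes, PAX7, DES and TNNC1 were about 2-fold higher in black-labelled skin, 4 sarcomere genes differed by at most 1.21-fold, and the 3 myogenic factors MYF5, MYOD1 and MYOG lay at or below 0.137 RPKM in both values. None of the 10 reached the authors' q-value of 0.05, a threshold passed by 35 genes, or 0.331% of the 10569 genes with a p-value under 1 in the authors' deposited table. In that table an unadjusted p under 0.05 was listed for 3 of the 7 genes with a p-value under 1, all higher in black-labelled skin. Of all genes with a p-value under 1, 3.46% lay under that level, 2.07% higher in black-labelled and 1.39% higher in yellow-labelled skin. By size, 3 of the 7 measured genes were at least 1.5-fold higher in black-labelled skin and 0 in yellow-labelled skin, against 1.78% and 1.08% of all measured genes in the same order and 2.86% in either direction. At least 2-fold higher in black-labelled skin were 2 of them, DES and PAX7, against 0.467% of all measured genes. The median log2 ratio of the 7 was 0.28, against -0.00 over all measured genes. Of the 7, 4 were higher in black-labelled skin and 3 in yellow-labelled skin, against 5005 and 5049 of all measured genes. No test of the group as a whole was run.

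**Figure D1:**
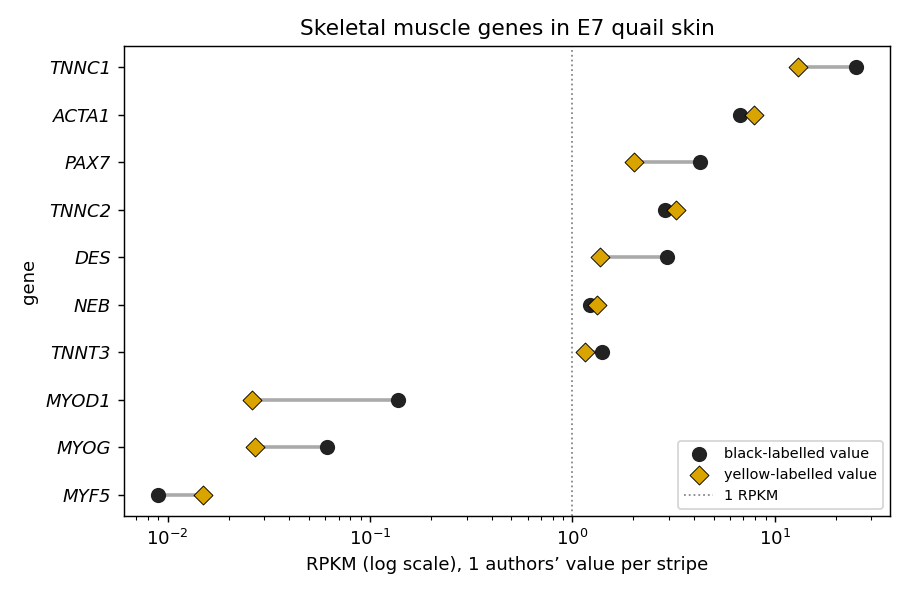
RPKM on a log axis for the 10 skeletal muscle genes, ordered by mean level, with 1 authors' value per stripe (circle, black-labelled; diamond, yellow-labelled) and a dotted line at 1 RPKM. TNNC1, PAX7 and DES have circles well to the right of their diamonds, TNNC2, ACTA1, NEB and TNNT3 have near-overlapping symbols, and the myogenic factors lie far below the line; no error bars can be drawn.

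PAX7, the paired-box factor of muscle progenitors and satellite cells, which in birds also marks early neural crest and the dorsal neural tube, had 4.25 RPKM in black-labelled skin and 2.01 RPKM in yellow-labelled skin. The black-labelled value was 2.12-fold higher, a log2 ratio of 1.08, with p = 0.0004 and q = 0.0853 in the authors' deposited table. This q was the lowest of the 10 genes. Of the 10061 measured genes, 35 had a log2 ratio at least this large, PAX7 included. PAX3, its paralog, which acts in muscle progenitors and in the melanocyte lineage, had 6.89 RPKM in black-labelled skin and 5.75 RPKM in yellow-labelled skin. PAX7 therefore stood at 0.617 of the PAX3 level in black-labelled skin and at 0.349 of it in yellow-labelled skin, on the RPKM scale.

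The 3 myogenic factors among the members were close to 0. MYF5, a determination factor, had 0.009 RPKM in black-labelled skin and 0.015 RPKM in yellow-labelled skin. MYOD1, the second determination factor, had 0.137 and 0.026 RPKM in the same order. MYOG, the differentiation factor, had 0.061 and 0.027 RPKM. The black-labelled value was thus the higher one for MYOD1 and MYOG and the lower one for MYF5. At most 8.31% of all genes lay at or below these levels. The ratios look large, at 5.27-fold for MYOD1, but all 3 had p = 1 in the authors' deposited table. Of the 1055 genes with a mean under 0.15 RPKM, 0 had a p under 1 there, and the depth behind these values is unknown, so a difference was not detectable at this level. MYF6, the fourth member of the family, and MYMK, which drives fusion of myoblasts, were listed at 0 in both values.

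DES, the intermediate filament protein that links Z discs and is shared by skeletal, heart and smooth muscle, had 2.94 RPKM in black-labelled skin and 1.36 RPKM in yellow-labelled skin. This was a 2.15-fold difference (log2 ratio 1.11), with p = 0.00565 and q = 0.463 in the authors' deposited table. It had the largest ratio of the 7 measured genes, and 33 of all measured genes, DES included, had a ratio at least this large. SYNM, the intermediate filament protein that pairs with desmin, had 3.41 and 3.52 RPKM in the same order.

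TNNC1, the calcium-binding troponin C of slow skeletal and heart muscle, was the most abundant of the 10 genes in both values. It had 25.1 RPKM in black-labelled skin and 13.0 RPKM in yellow-labelled skin, a 1.93-fold difference (log2 ratio 0.95), with p = 0.0027 and q = 0.267 in the authors' deposited table. In black-labelled skin 75.2% of all genes lay at or below it, and in yellow-labelled skin 56.2%. Its level stood apart from that of its partners in the troponin complex. TNNI1, the slow inhibitory subunit, had 0.857 RPKM in black-labelled skin and 1.12 RPKM in yellow-labelled skin, and TNNT1, the slow tropomyosin-binding subunit, had 0.974 and 1.25 RPKM. TNNC1 was thus 29.3-fold above TNNI1 in black-labelled skin and 11.6-fold above it in yellow-labelled skin. TNNI1 averaged 0.9885 RPKM, just under the level called measured, so these folds rest on a low denominator. Both partners had the lower value in black-labelled skin, with p = 0.513 for TNNI1 and p = 0.584 for TNNT1 in the authors' deposited table. Of the heart subunits, TNNT2 had 0.060 and 0.135 RPKM, and TNNI3 had 5.04 and 4.73 RPKM.

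The other troponin members were nearly equal between the stripes. TNNC2, the troponin C of fast fibres, had 2.87 RPKM in black-labelled skin and 3.24 RPKM in yellow-labelled skin (p = 0.706 in the authors' deposited table). TNNT3, the fast tropomyosin-binding subunit, had 1.39 and 1.15 RPKM (p = 0.394 in the authors' deposited table). The ratio of slow and heart type TNNC1 to fast TNNC2 was 8.74 in black-labelled skin and 4.00 in yellow-labelled skin. TNNI2, the fast inhibitory subunit, was not analysed here.

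**Figure D2:**
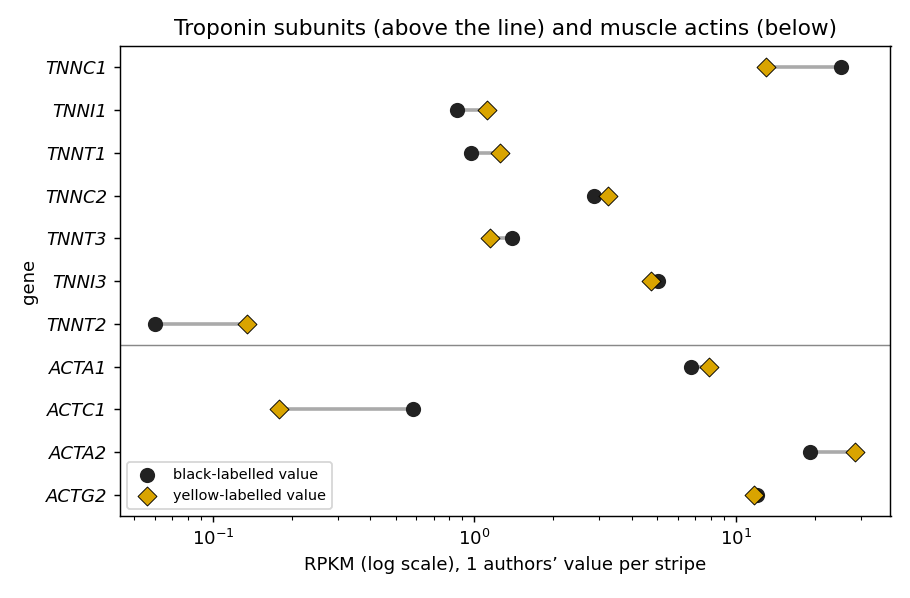
RPKM on a log axis for troponin subunits (above the grey line) and muscle actins (below it), with 1 authors' value per stripe (circle, black-labelled; diamond, yellow-labelled) and no error bars. TNNC1 lies to the right of every other troponin subunit, and ACTA1 lies to the left of the smooth muscle actins ACTA2 and ACTG2 and to the right of the heart actin ACTC1.

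ACTA1, the actin of skeletal muscle thin filaments, was second in level in both values, with 6.75 RPKM in black-labelled skin and 7.89 RPKM in yellow-labelled skin (log2 ratio -0.22, p = 0.454 in the authors' deposited table). ACTC1, the heart actin that embryonic skeletal muscle also uses, had 0.581 and 0.179 RPKM, with p = 1 in the authors' deposited table. ACTA2, the vascular smooth muscle actin, was more abundant at 19.1 and 28.6 RPKM, so ACTA1 stood at 0.353 of it in black-labelled skin and 0.275 of it in yellow-labelled skin. Muscle actins have near-identical coding sequences, and the sources used here do not say how reads that match several of them were counted, so the split between them is uncertain. NEB, the giant protein that spans the thin filament, had 1.22 RPKM in black-labelled skin and 1.33 RPKM in yellow-labelled skin (log2 ratio -0.12, p = 0.639 in the authors' deposited table). Of the 5 sarcomere members, ACTA1, NEB and TNNC2 thus had log2 ratios below 0, and TNNC1 and TNNT3, with 0.28, had ratios above it.

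In order of level, the black-labelled value ran TNNC1, ACTA1, PAX7, DES, TNNC2, TNNT3, NEB, MYOD1, MYOG and MYF5. In the yellow-labelled value TNNC2 came before PAX7 and DES, NEB before TNNT3 and MYOG before MYOD1. Without a spread over libraries, no neighbours in either order can be said to differ. The 10 genes summed to 44.7 RPKM in black-labelled skin and 30.0 RPKM in yellow-labelled skin, and without TNNC1 the other 9 summed to 19.6 and 17.0 RPKM.

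**Figure D3:**
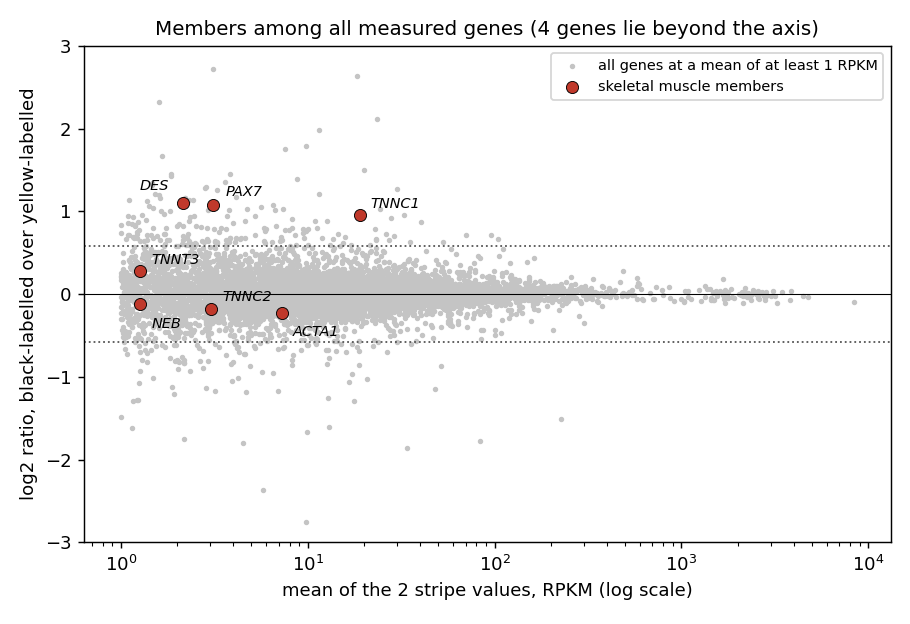
Log2 ratio of the black-labelled over the yellow-labelled value against the mean RPKM (log axis) for all measured genes (grey) and the 7 measured muscle members (red), with dotted lines at 1.5-fold. DES, PAX7 and TNNC1 lie above the upper line at log2 ratios of 1.11, 1.08 and 0.95, and the other 4 members lie within the grey cloud between the lines; 4 genes lie beyond the axis limit of 3.

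Muscle genes outside the 10 lay on both sides of 0. Lists of muscle genes by role held 152 further genes, of which 119 were matched to the table and 63 were measured; the other 33 were not analysed here. Of those matched, 4 were listed at 0 in both values, MYF6, MYMK, CAV3 and MYL2. None reached the authors' q-value of 0.05. An unadjusted p under 0.05 was listed in the authors' deposited table for 4 of 70 genes with a p under 1, or 5.71% against the 3.46% of all genes, with 1 higher in black-labelled skin and 3 in yellow-labelled skin. The median log2 ratio of the 63 was -0.03, and 26 were higher in black-labelled skin and 37 in yellow-labelled skin. Over all measured genes these counts were 5005 and 5049 in the same order, and no test of the difference was run.

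Of the 25 regulators of myogenic and somite cells, with the members PAX7, MYF5, MYOD1 and MYOG included, 16 were measured. PAX7 was the 1 of 17 genes with a p under 1 whose unadjusted p in the authors' deposited table was under 0.05, against 3.46% of all genes. The list median was -0.03. The most abundant were TCF12, a widely expressed partner of the myogenic factors, with 386 RPKM in black-labelled skin and 393 RPKM in yellow-labelled skin, FST, an antagonist of activin and myostatin, with 55.6 and 41.8 RPKM, and MEF2C, a MADS-box cofactor of myogenic factors, with 31.1 and 36.8 RPKM. LBX1, the homeobox factor of migrating limb muscle progenitors, had 0.030 and 0.034 RPKM.

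Of 15 genes of fusion and the cell surface, 10 were measured. MEGF10, a receptor of satellite cells, had 3.32 RPKM in black-labelled skin and 4.95 RPKM in yellow-labelled skin (p = 0.0179 in the authors' deposited table). BOC, a Hedgehog co-receptor that promotes myogenic differentiation, had 44.6 and 58.8 RPKM (p = 0.043 in the authors' deposited table). NCAM1, an adhesion molecule of muscle and nerve, had 83.4 and 83.7 RPKM, and NEO1, a netrin receptor, had 38.5 and 38.6 RPKM. CAV3, the caveolin of muscle fibres, was listed at 0 in both values.

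The thin filament list includes the members ACTA1, NEB, TNNC1, TNNC2 and TNNT3. Of its 20 genes, 11 were measured, 1 of them (TNNC1) at least 1.5-fold apart against the 2.86% of all measured genes. The list median log2 ratio was -0.09. Its most abundant genes were the tropomyosins TPM3 with 214 RPKM in black-labelled skin and 228 RPKM in yellow-labelled skin, TPM1 with 113 and 133 RPKM, and TPM2 with 76.2 and 71.6 RPKM. Tropomyosin genes also encode forms of cells other than muscle. In the thick filament list 12 of 28 genes were matched and 2 were measured. MYL10, a myosin regulatory light chain, had 5.17 RPKM in black-labelled skin and 2.02 RPKM in yellow-labelled skin, a log2 ratio of 1.36 with p = 0.003 and q = 0.286 in the authors' deposited table. MYH15, a myosin heavy chain, had 1.35 and 1.31 RPKM. MYL3, a slow and ventricular essential light chain, had 0.707 and 0.606 RPKM. MYL1, the fast essential light chain, had 0.160 and 0.034 RPKM, and MYL2, the slow and ventricular regulatory light chain, was listed at 0 in both values.

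Of 21 genes of the Z disc and its desmin links, 5 were measured. DES was the 1 of 6 genes with a p under 1 whose unadjusted p in the authors' deposited table was under 0.05, against 3.46% of all genes. At least 1.5-fold apart were 2 of the 5, DES higher in black-labelled and MYOZ3 in yellow-labelled skin, against 2.86% of all measured genes. PDLIM5, a Z disc scaffold found in many tissues, had 5.12 RPKM in black-labelled skin and 5.83 RPKM in yellow-labelled skin. MYOZ3, a calcineurin-binding Z disc protein, had 1.92 and 3.37 RPKM in the same order (p = 0.405 in the authors' deposited table). Genes of excitation-contraction coupling had 7 measured members and a median of -0.03, with log2 ratios between -0.21 and 0.22. The most abundant were ATP2A2, a calcium pump of many cell types, with 28.15 and 30.1 RPKM, CACNB1, a calcium channel subunit, with 7.50 and 7.28 RPKM, and CACNA2D1, another such subunit, with 5.40 and 5.53 RPKM. CACNA1S, the voltage sensor of skeletal muscle fibres, had 0.047 and 0.045 RPKM.

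Of 11 neuromuscular junction genes, 2 were measured, AGRN, the nerve-derived organiser of the synapse, with 25.6 RPKM in black-labelled skin and 21.1 RPKM in yellow-labelled skin, and LRP4, its receptor, with 12.7 and 15.3 RPKM. COLQ, which anchors acetylcholinesterase, had 0.556 and 0.558 RPKM, and CHRNA1, the receptor subunit of the muscle end plate, had 0.040 and 0.017 RPKM. In the dystrophin complex, which ties the fibre's cytoskeleton to the matrix, 12 of 13 genes were measured, with log2 ratios between -0.21 and 0.45 and a median of 0.03. Its most abundant genes were DAG1, the dystroglycan, with 36.3 and 34.4 RPKM, DMD, dystrophin, with 35.0 and 35.5 RPKM, and UTRN, its widely expressed relative, with 33.9 and 33.2 RPKM. SGCA, the alpha-sarcoglycan of striated muscle, had 0.105 and 0.187 RPKM. In the list of muscle metabolism 5 of 10 genes were measured. CKB, the brain-type creatine kinase, had 28.3 and 43.0 RPKM (p = 0.0085, q = 0.571 in the authors' deposited table), ALDOC, an aldolase, had 139 and 139 RPKM, and ENO3, the muscle enolase, had 16.45 and 15.25 RPKM.

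**Figure D4:**
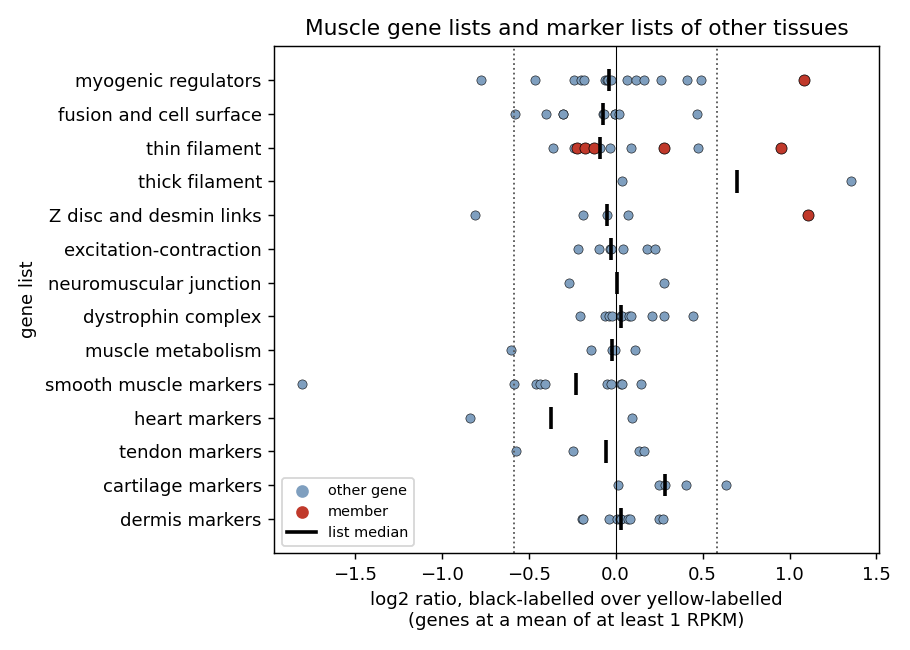
Log2 ratio of the black-labelled over the yellow-labelled value for every measured gene of 9 muscle lists and 5 marker lists, with the 10-gene members in red, other genes in blue, list medians as vertical bars and dotted lines at 1.5-fold. Medians of the muscle lists lie between -0.09 and 0.03 except that of the thick filament list, which rests on 2 genes, and PAX7, DES and TNNC1 lie at the right end of their lists.

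Markers of other tissues differed in direction. Of 12 smooth muscle markers, 10 were measured. Of these, 3 were higher in black-labelled skin and 7 in yellow-labelled skin, against 5005 and 5049 of all measured genes. All 12 summed to 227 RPKM in black-labelled skin and 249 RPKM in yellow-labelled skin. MYH11, the smooth muscle myosin, had 2.00 and 6.97 RPKM (q = 0.0177 in the authors' deposited table). It was the 1 list member past the authors' q-value of 0.05, against 0.331% of all genes with a p-value under 1. ACTA2 (p = 0.00865) and MYOCD, the master regulator of smooth muscle, with 9.64 and 13.2 RPKM (p = 0.0448), were under 0.05 by the unadjusted p of the authors' deposited table. With MYH11 these were 3 of the 10 list genes with a p-value under 1, against 3.46% of all such genes. The most abundant were CALD1, an actin-binding caldesmon, with 111 and 109 RPKM, PDGFRB, a receptor of pericytes, with 33.6 and 30.4 RPKM, and MYLK, the myosin light chain kinase, with 23.4 and 31.7 RPKM. DES stood at 0.154 of the ACTA2 level in black-labelled skin and 0.0476 of it in yellow-labelled skin. Of 10 heart markers 6 were matched, with sums of 6.72 and 7.66 RPKM, and 2 were measured; NKX2-5, the heart homeobox factor, was listed at 0 in both values and GATA4 had 0.005 RPKM in both. RYR2, the heart ryanodine receptor, had 1.555 and 2.78 RPKM (p = 0.0006, q = 0.107 in the authors' deposited table).

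Of 7 cartilage markers 5 were measured, and the 7 summed to 149 RPKM in black-labelled skin and 112 RPKM in yellow-labelled skin. The log2 ratios of the 5 lay between 0.01, for HAPLN1, a link protein, and 0.63, for COL2A1. COL2A1 was the 1 of the 5 at least 1.5-fold apart, against 2.86% of all measured genes. Of all measured genes, 5005 of 10061 were higher in black-labelled skin. COL2A1, the main collagen of cartilage, had 64.6 RPKM in black-labelled skin and 41.6 RPKM in yellow-labelled skin (p = 0.001, q = 0.148 in the authors' deposited table). COL11A1, a minor fibrillar collagen, had 70.3 and 59.2 RPKM and SOX9, the chondrogenic regulator, 8.99 and 6.78 RPKM, while ACAN, the aggrecan core protein, had 0.118 and 0.193 RPKM. The 6 tendon markers summed to 94.3 and 114 RPKM. TNMD, a tendon membrane protein, had 51.4 and 60.9 RPKM, and THBS4, a thrombospondin, had 14.3 and 12.8 RPKM. TNC, a matrix protein, had 24.3 and 36.2 RPKM (p = 0.00395, q = 0.347 in the authors' deposited table). The 10 dermis markers summed to 2565 and 2470 RPKM, and the 6 matched keratinocyte markers to 372 and 431 RPKM. The 8 melanocyte markers summed to 217 and 607 RPKM. All 8 were measured, 7 higher in yellow-labelled skin and 1, KIT, higher in black-labelled skin. At least 1.5-fold higher in yellow-labelled skin were 5 of the 8, against 1.08% of all measured genes. The 8 matched neuron markers summed to 22.8 and 21.5 RPKM, but all 5 measured ones were at least 1.5-fold apart, 3 higher in black-labelled skin and 2 in yellow-labelled skin, against 2.86% of all measured genes. TUBB3, a neuronal tubulin, had 10.4 RPKM in black-labelled skin and 5.99 RPKM in yellow-labelled skin, the direction of PAX7 (p = 0.0021, q = 0.231 in the authors' deposited table). GAP43, a protein of growing axons, had 2.79 and 4.99 RPKM, the opposite direction (p = 0.00065, q = 0.109 in the authors' deposited table). ELAVL4, a neuronal RNA-binding protein, also ran that way, with 4.07 and 6.41 RPKM (p = 0.00925, q = 0.597 in the authors' deposited table). The part of these tissues in the values of PAX7, DES and TNNC1 was not tested.

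With 2 values per gene, likeness of pattern says little, and it was measured as the Euclidean distance over log2 RPKM of both values across 12066 genes above 0. Nearest to DES were AGTR1 at a distance of 0.05, TRAPPC3L at 0.06 and RAB36 at 0.09. Nearest to PAX7 were CNTN4 at 0.12, NRN1 at 0.14 and ARHGAP15 at 0.22. Nearest to TNNC1 were ITGA4 and ADAM22, both at 0.29, and RARRES2 at 0.31. None of these is among the muscle lists above.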

How the data were processed

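RNA of dissected stripes was extracted with Trizol and made into libraries with an Illumina TruSeq kit, per the labels' protocols. The submitters' processing notes name TopHat2 2.1.1 and Cufflinks 2.2. The sources used here do not give the build, the annotation, whether strand was used or how libraries were combined. The RPKM values, 1 per stripe, are the authors', per the file headers. The authors' deposited p-values, q-values and log2 ratios come from sheets whose header names a QIAGEN program. Their log2 ratios lay within 0.01 of those of the RPKM columns in all 10503 genes with both values at or above 0.5 RPKM. Total reads are unknown.

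Of 12419 rows, 11 with date numbers in place of gene IDs and 25 with repeated IDs were left out. Log2 ratios were computed without a pseudocount (Python 3.11.15, pandas 2.3.3). The code was run on constructed values with set ratios and no noise, which checks its arithmetic alone. No test was run, since there is 1 value per stripe. A gene counts as tested where its p is under 1. RefSeq names of Coturnix japonica 2.1 matched all 10 members, and no coordinates are given because the builds may differ. MYMK was matched through its older symbol. Members and lists were chosen with earlier results of these data known. Named genes are the members, plus from each list the 3 most abundant and those with a mean of at least 0.5 RPKM and an unadjusted p under 0.05; for the lists of dermis, keratinocyte and melanocyte markers sums are given instead. Further genes, such as those near 0, were named after their values were seen.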

Additional observations from a re-analysis of the deposited data

How the results depend on the processing

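The count of 0 members past the authors' q-value of 0.05 became 3 at an unadjusted p under 0.05 (PAX7, DES, TNNC1) and 1 at q under 0.2 (PAX7). The count of 3 measured members at least 1.5-fold apart was 6 with no floor, which adds MYOD1, MYOG and MYF5, all near 0. It was 1 (TNNC1) at a floor of 5 RPKM, where 2 members were left. This count was 3 with either pseudocount, at a floor of 0.1 RPKM and after centring, and 2 at 2-fold. Shares of all genes were not computed with no floor, at 5 RPKM or at q under 0.2. The counts at those settings therefore cannot be called unusual. The median log2 ratio of 0.28 became 0.62 with no floor, 0.36 at 5 RPKM, 0.16 with a pseudocount of 1 and 0.26 with one of 0.1. A pseudocount cannot turn a ratio, and centring moved all ratios by less than the smallest of them, so the unchanged signs of the members say nothing about stability. No replicate could be left out and no paired analysis was possible because the values used are 1 per stripe. Depth is unknown, so values near 0 carry no interval.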

Other observations

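The protein-coding genes that lie next to the members in the RefSeq order of Coturnix japonica 2.1 give values that belong to no comparison above. DES lies between DNPEP, with 56.1 RPKM in black-labelled skin and 57.4 RPKM in yellow-labelled skin, and SPEG, a kinase of striated muscle, with 0.987 and 1.06 RPKM. TNNC1 lies between RPL29, a ribosomal protein gene with 1760 and 1756 RPKM, and NISCH with 14.6 and 14.8 RPKM. PAX7 lies between ATP13A2, with 3.32 and 3.69 RPKM, and ALDH4A1, with 18.1 and 18.0 RPKM. The neighbours of DES, TNNC1 and PAX7 thus had log2 ratios between -0.15 and 0.00, where these members had ratios between 0.95 and 1.11. Most measured genes lay near 0, with quartiles of -0.08 and 0.08, so this contrast says nothing about the members. Next to other members, CCSAP beside ACTA1 had a log2 ratio of 0.27 and RIF1 beside NEB had -0.20. MYF5 lies next to MYF6, which was listed at 0 in both values.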
